A study of Homo sapiens with 37 samples.

Results

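The genes described here encode the steps of glucose breakdown and the response to low oxygen: glucose transporters, glycolytic enzymes, lactate dehydrogenases and lactate transporters, kinases that steer pyruvate and fructose phosphates, targets of the hypoxia-inducible factors (HIF), and the alpha subunits of HIF itself. They were taken by gene symbol from a list of 35, and all 35 were found among the 57773 Ensembl gene identifiers of the count tables. Membership follows the list alone, which was drawn up with earlier results of these data known. Total RNA of cultured human cells was sequenced after ribosomal RNA was removed, in 37 libraries that form 17 groups. The study sought changes in RNA shared by cells pushed toward senescence, a lasting stop of division, and senescence itself was not measured here.

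HAEC, endothelial cells of the aorta at population doubling level (PDL) 4 to 6, gave 2 untreated libraries and 3 libraries of cells given 4 Gy of ionising radiation. HUVEC, endothelial cells of the umbilical vein at PDL 3 to 5, gave 3 untreated libraries and 3 after 4 Gy. IMR-90, a strain of fetal lung fibroblasts, gave 2 control libraries at PDL 15. They are labelled proliferating 1 and 2 here, a name that is not in their titles and that their markers below do not bear out. IMR-90 also gave 2 libraries of cells given 10 Gy at PDL 15 and 2 of late-passage cells at PDL 52. Both IMR-90 comparisons share the same 2 control libraries. WI-38, another strain of fetal lung fibroblasts, gave 2 libraries for each of its 10 groups, all at PDL 25 except the late-passage cells. In a first experiment WI-38 cells were left untreated or were given doxorubicin, a drug that damages DNA, at 2 µg/mL for 24 h. In the same set, cells received a lentivirus with HRAS(G12v), an HRAS gene with an activating mutation, or a lentivirus with an empty vector. Both of these groups were infected at a multiplicity of 10 and selected with puromycin at 1 µg/mL. A second set held a repeat of the doxorubicin treatment with its own controls, cells given 10 Gy with their controls, and cells grown to PDL 53 to 55 with proliferating controls. This grouping into sets was made here, and the titles name no batch beyond the word Repeat. Each cell type is 1 strain or product, and the labels give neither the time from treatment to harvest nor the promoter of the HRAS virus. Nothing in the labels says that a group had more than 1 culture, and the p-values rest on the spread between libraries, which may be technical.

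Between 102293388 and 370996204 reads were counted per library. The 12 libraries of the second WI-38 set stood apart from the other 25 in composition: mitochondrial genes took 3.208% to 14.02% of their counts, against 0.1005% to 0.6065%, and protein-coding genes 82.05% to 91.09%, against 50.69% to 66.94%. The members took 0.697% to 1.12% of all counts in the 25 libraries and 0.741% to 1.23% in the 12. Levels are given as CPM, the counts of a gene relative to the scaled library total. Scaling was done within each set, so levels of different sets are not on 1 scale and were not tested against each other. HRAS checked the labels of its virus: 36.0 and 47.0 CPM with the empty vector, 1944 and 1988 CPM with HRAS(G12v). Markers of endothelium, of which 11 were found, summed to 1780 to 2250 CPM in HAEC and HUVEC and to 50.1 to 308 CPM in the fibroblasts. Fibroblast markers, 10 genes, summed to 16 to 39.1 CPM in the endothelial cells and to at least 1070 CPM in every fibroblast library, and blood and leukocyte markers to at most 5.2 CPM anywhere. A sum of 10 proliferation genes was lower in the treated libraries of every comparison but those of IMR-90. There it was 284 to 291 CPM in the PDL 15 controls, 429 to 431 CPM in the irradiated and 289 to 315 CPM in the late-passage libraries. At an adjusted p below 0.05 (edgeR), 9 of the 10 genes rose and 0 fell with radiation, and 6 rose and 1 fell with passage. Of all genes, 26.6% rose in each of these comparisons. The controls are thus not shown to divide faster than the cells set against them. The titles of these libraries give PDL or radiation and no state of growth, and were kept as given. In every fibroblast library the epithelial markers EPCAM, CDH1 and ESRP1 and the endothelial markers ERG, EMCN and CLDN5 were under 1 CPM. In RNA of whole cultures, fewer cells that express a gene and less RNA per cell cannot be told apart.

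Glycolysis turns glucose into pyruvate in the cytosol. Lactate dehydrogenase can reduce the pyruvate to lactate for export, or pyruvate dehydrogenase can carry it into the mitochondrial citrate cycle, a step that the pyruvate dehydrogenase kinases (PDK) shut. HIF is a transcription factor whose alpha subunit is hydroxylated by the EGLN enzymes and degraded when oxygen is present. In low oxygen it accumulates, pairs with ARNT and binds short sites, ACGTG or GCGTG, near genes that include many glycolytic enzymes. Fibroblasts and endothelial cells in culture both rely strongly on glycolysis, and HIF alpha is set largely at the level of protein, which was not measured.

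Promoters are shown for 6 members on which the results turn: PGK1, HK2 and BNIP3, which rose with HRAS(G12v); LDHA, called higher there and in 3 other comparisons, though with HRAS not under every setting; ALDOC, which fell in 6 comparisons; and PDK4, the member with the widest range of change. Each sequence runs 5′ to 3′ from 250 bases before to 50 bases after the RefSeq start of the gene, on its own strand, in build GRCh38.p14. Capitals mark ACGTG or GCGTG on either strand (CACGT or CACGC when read on the other), and touching or overlapping matches are 1 run of capitals, counted once. The windows are PGK1 chrX:78103998-78104297 (plus strand), LDHA chr11:18394313-18394612 (plus strand), HK2 chr2:74833877-74834176 (plus strand), BNIP3 chr10:131981874-131982173 (minus strand), ALDOC chr17:28576846-28577145 (minus strand) and PDK4 chr7:95596467-95596766 (minus strand).
PGK1: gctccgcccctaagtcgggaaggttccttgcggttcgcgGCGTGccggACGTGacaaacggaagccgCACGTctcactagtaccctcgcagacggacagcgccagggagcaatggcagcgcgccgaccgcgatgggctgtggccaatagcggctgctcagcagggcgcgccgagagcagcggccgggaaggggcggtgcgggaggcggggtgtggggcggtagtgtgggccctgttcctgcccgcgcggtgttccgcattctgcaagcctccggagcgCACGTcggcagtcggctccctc
LDHA: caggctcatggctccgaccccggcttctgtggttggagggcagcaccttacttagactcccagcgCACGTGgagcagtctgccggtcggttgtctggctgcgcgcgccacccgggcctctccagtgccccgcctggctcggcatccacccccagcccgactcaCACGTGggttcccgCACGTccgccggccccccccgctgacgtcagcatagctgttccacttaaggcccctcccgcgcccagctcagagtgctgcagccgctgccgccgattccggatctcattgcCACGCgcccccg
HK2: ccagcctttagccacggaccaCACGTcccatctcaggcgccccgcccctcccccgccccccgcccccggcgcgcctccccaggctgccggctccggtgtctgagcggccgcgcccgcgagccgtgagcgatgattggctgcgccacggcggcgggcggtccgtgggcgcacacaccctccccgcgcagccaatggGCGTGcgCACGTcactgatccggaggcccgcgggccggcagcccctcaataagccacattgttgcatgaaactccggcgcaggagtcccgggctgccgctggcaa
BNIP3: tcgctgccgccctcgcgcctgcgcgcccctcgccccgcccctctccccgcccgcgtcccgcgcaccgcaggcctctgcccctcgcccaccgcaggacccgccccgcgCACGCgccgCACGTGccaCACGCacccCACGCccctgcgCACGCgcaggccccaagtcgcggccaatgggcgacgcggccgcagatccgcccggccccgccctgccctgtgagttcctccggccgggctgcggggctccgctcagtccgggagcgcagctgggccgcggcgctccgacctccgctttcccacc
ALDOC: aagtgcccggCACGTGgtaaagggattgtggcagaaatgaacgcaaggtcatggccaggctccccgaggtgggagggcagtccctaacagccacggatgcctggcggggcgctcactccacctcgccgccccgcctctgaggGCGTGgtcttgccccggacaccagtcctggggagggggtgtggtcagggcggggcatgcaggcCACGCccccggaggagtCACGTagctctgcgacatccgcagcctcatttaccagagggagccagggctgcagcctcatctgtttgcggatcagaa
PDK4: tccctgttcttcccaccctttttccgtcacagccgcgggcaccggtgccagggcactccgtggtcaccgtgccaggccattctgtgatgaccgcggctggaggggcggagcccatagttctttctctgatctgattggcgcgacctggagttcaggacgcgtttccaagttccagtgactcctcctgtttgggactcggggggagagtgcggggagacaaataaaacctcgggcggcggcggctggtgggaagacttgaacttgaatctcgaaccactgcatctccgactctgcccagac
Of the 35 members, 32 had a promoter in the RefSeq table. At least 1 match stood in 23 of these 32 (71.9%), against 48.4% of the 35116 promoters of this length in the table. At least 2 matches stood in 7 of 32 (21.9%), against 20% of all, and ACGTG alone in 13 of 32 (40.6%), against 21.4%. BNIP3 had 5 matches, PGK1, LDHA and ALDOC 4 each, HK2 3, and PDK4 0. A match is a stretch of letters and was not tested as a binding site.

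Across the 9 comparisons of treated with control cells, 26 members rose in at least 1 and fell in at least 1 other. ALDOA, GAPDH, SLC16A3, BNIP3 and ADM only rose among their calls, PFKP, LDHB and CA9 only fell, and EGLN3 passed the test nowhere. A call is an adjusted p below 0.05 over all genes tested. In a single comparison, 2.26% to 27.1% of all genes tested were called in 1 direction. The share of all genes called in both directions over the 9 was not counted. Mixed direction is therefore not shown to be particular to the members. PDK4 was called in all 9 comparisons, 7 times higher and 2 times lower. Those counts hold for the scaling used. When libraries were scaled by their totals only, the median log2 fold change of all genes moved by -0.25 in irradiated IMR-90, -0.20 in late-passage IMR-90, -0.17 with doxorubicin, -0.28 with HRAS and -0.12 in irradiated WI-38. Small rises in those 5 comparisons are therefore reported relative to the other genes.

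**Figure D1:**
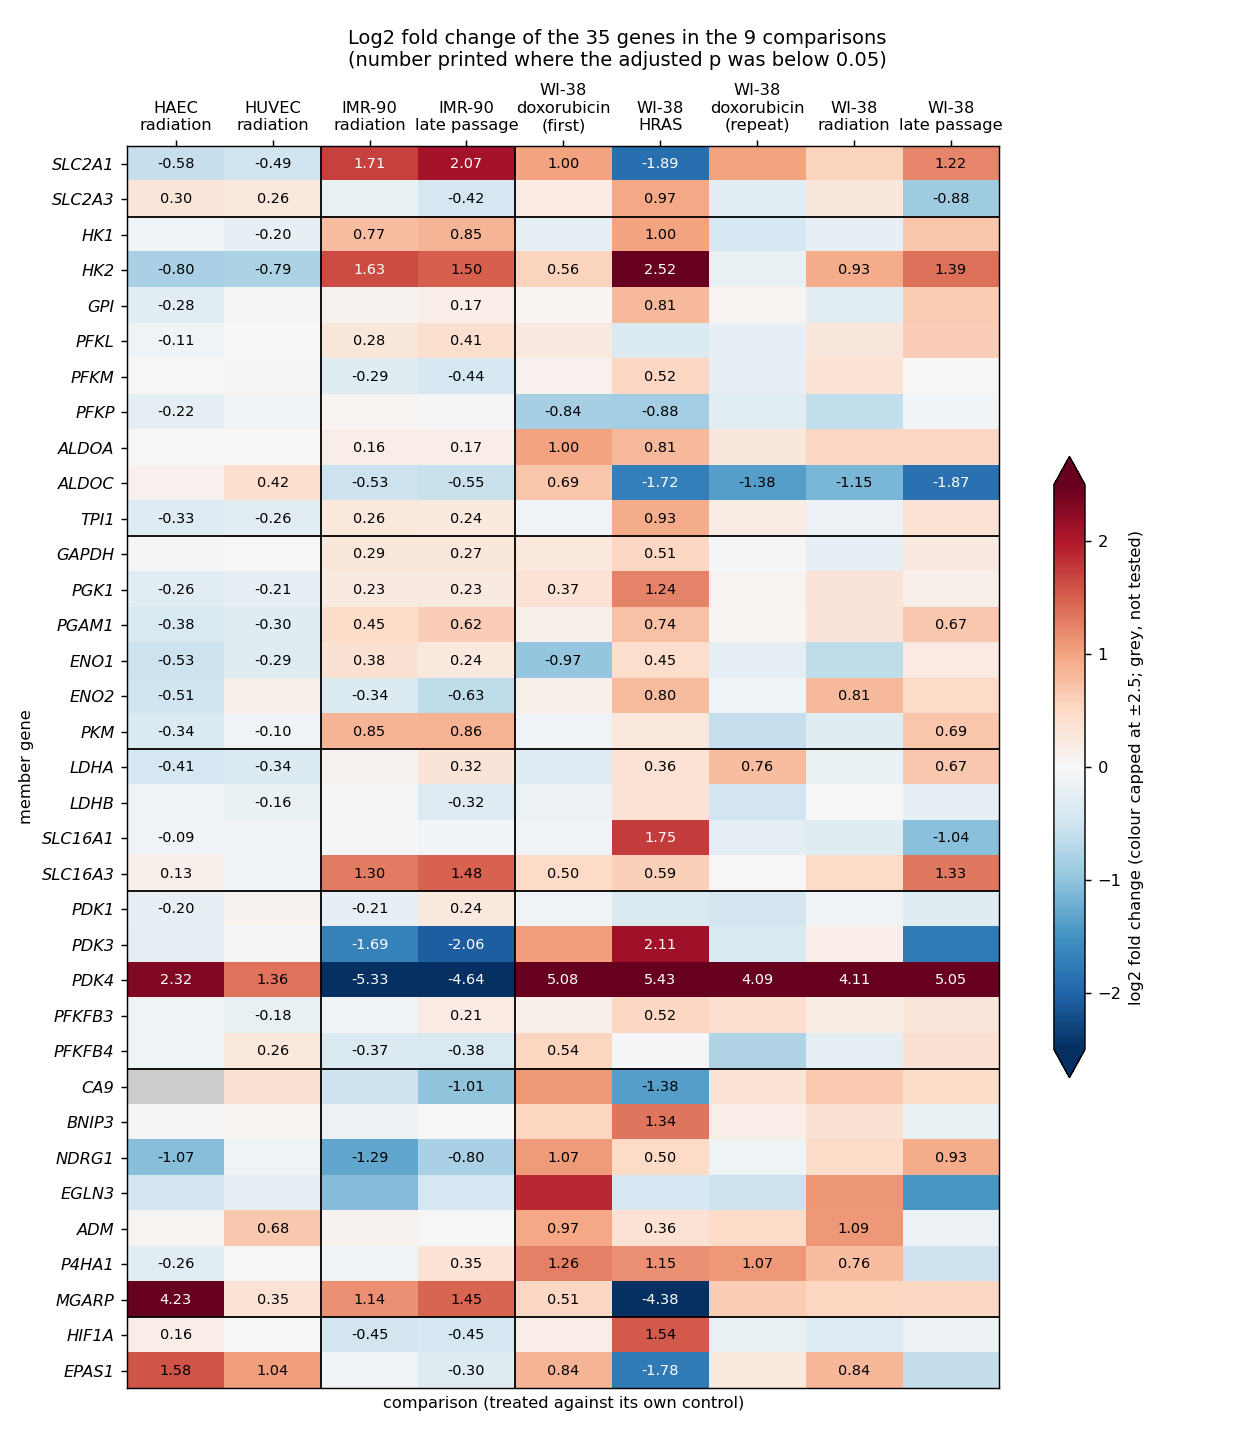
Log2 fold change of each of the 35 members (vertical axis) in the 9 comparisons (horizontal axis), treated over control, with calls at an adjusted p below 0.05 marked. HK2, ENO1 and PKM are negative in both endothelial comparisons and positive in both of IMR-90, and PDK4 has the widest range, from -5.33 in irradiated IMR-90 to 5.43 with HRAS, a fitted value that rests on 2 reads with the empty vector.

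In irradiated HAEC, 16 of 34 members tested fell and 6 rose, where 19.9% and 19.7% of all 28024 genes tested fell and rose. Of the 6 enzymes of lower glycolysis, 5 fell, as did 5 of the 9 of upper glycolysis (HK2, GPI, PFKL, PFKP and TPI1). Both HIF alpha subunits, PDK4, MGARP, SLC2A3 and SLC16A3 rose. The median log2 fold change of the members was -0.11, against 0.01 for all genes. The proliferation genes fell from 1480 to 1520 CPM to 523 to 539 CPM, and their part in the result was not tested. With 1 library left out, calls were lost for PFKL (-0.03 without control 1, -0.09 without irradiated 2, -0.11 without irradiated 3), ENO2 (-0.31 without control 1), PDK1 (-0.16 without control 2) and SLC16A1 (-0.10 without control 1, -0.07 without control 2, -0.08 without irradiated 1 and -0.10 without irradiated 3), all log2 fold changes. With all 37 libraries in 1 fit, 5 members were called lower and 3 higher, and 14 calls were lost, among them SLC2A1 (-0.54), TPI1 (-0.29), PGK1 (-0.21), PKM (-0.30), SLC2A3 (0.35) and HIF1A (0.20). CA9 was too low to test, with 7 counts in the controls and 20 in the irradiated libraries, a ratio of 1.33 (95% exact interval 0.54 to 3.72, counting error only).

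In irradiated HUVEC, 11 of 35 members fell and 7 rose, against 20.1% and 18.6% of 27519 genes. SLC2A1, HK1, HK2, TPI1, PGK1, PGAM1, ENO1, PKM, LDHA, LDHB and PFKFB3 fell. SLC2A3, ALDOC, PDK4, PFKFB4, ADM, MGARP and EPAS1 rose. Members had a median log2 fold change of -0.04, against 0.01 for all genes, and the proliferation genes went from 1450 to 1570 CPM to 892 to 913 CPM, whose part in the result was not tested. Without 1 library, PFKFB4 lost its call in each of the 6 fits (0.23 to 0.28), PKM without control 2 or any irradiated library (-0.11 to -0.08) and PFKFB3 without control 1 (-0.14) or irradiated 3 (-0.13). The fit of all 37 libraries called 4 lower and 3 higher and lost 11 calls, ENO1 (-0.30), PGK1 (-0.22) and MGARP (0.34) among them.

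In irradiated IMR-90, 13 of 35 members rose and 9 fell, against 26.6% and 22.5% of 29274 genes. The rise covered 5 of 6 enzymes of lower glycolysis, 5 of 9 of upper glycolysis, SLC2A1, SLC16A3 and MGARP. Of the 5 kinases, 4 fell (PDK1, PDK3, PDK4 and PFKFB4), with PFKM, ALDOC, ENO2, NDRG1 and HIF1A. The median of the members was -0.02, and that of all genes -0.02. Scaled by library totals, the balance turned to 7 higher and 17 lower, and with all 37 libraries in 1 fit 8 were higher and 4 lower. Under the totals ALDOA (-0.09) and PGK1 (-0.02) turned negative, and PFKL (0.03), TPI1 (0.01), GAPDH (0.04) and ENO1 (0.13) were no longer called. Without 1 library, calls were lost for ALDOA (any of the 4 compared, 0.14 to 0.18), PDK1 (proliferating 2, irradiated 1 or 2, -0.22 to -0.16), PFKFB4 (proliferating 2, -0.32, or irradiated 1, -0.26), ENO2 (proliferating 1 or irradiated 2, -0.30 each) and PGK1 (irradiated 2, 0.21). Beside this, fibroblast markers went from 14300 to 15100 CPM to 3200 to 3270 CPM and the proliferation genes were higher in the irradiated libraries. The summed epithelial markers went from 13 to 13.6 CPM to 65 to 68.4 CPM, with 4 of 5 tested called higher. Those of smooth muscle went from 87.7 to 91.5 CPM to 217 to 227 CPM, with 3 of 5 higher and 1 lower. Those of endothelium went from 252 to 255 CPM to 96.9 to 97.1 CPM, though 1 of 11 was called higher and 2 lower, with a median log2 fold change of -0.03. The part of these in the result was not tested.

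Late-passage IMR-90, set against the same controls, had 18 of 35 members higher and 12 lower, against 26.6% and 23.5% of all genes. Lower glycolysis again had 5 of 6 enzymes higher and upper glycolysis 6 of 9, and both HIF alpha subunits fell. Over the members the median was 0.16, against -0.04 for all genes. Fibroblast markers summed to 4830 to 5180 CPM, below the controls. Epithelial markers stood at 60.8 to 72.8 CPM, with 4 of 5 called higher, and smooth muscle markers at 234 to 271 CPM, with 3 of 5 higher and 2 lower. Endothelial markers stood at 74 to 106 CPM, with 7 of 11 lower and 1 higher, and the part of these lists was not tested. Scaled by totals, 8 members were higher and 15 lower, and the fit of all 37 libraries had 10 and 7. GPI (-0.03) and ALDOA (-0.03) turned negative under the totals, and TPI1 (0.05), GAPDH (0.08), PGK1 (0.04), ENO1 (0.05), LDHA (0.12), PDK1 (0.04), PFKFB3 (0.01) and P4HA1 (0.15) lost their calls. Without 1 library, calls were lost for GPI (0.12 without proliferating 2), ALDOA (0.16 without proliferating 2), PFKFB3 (0.16 without proliferating 2, 0.13 without late passage 1), CA9 (-0.73 without proliferating 2, -0.82 without late passage 2) and PDK1 (0.20 without proliferating 1, 0.16 without late passage 2).

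Doxorubicin in the first WI-38 experiment raised 13 of 35 members and lowered 2, PFKP and ENO1, against 13.6% and 13.2% of 29380 genes. Hypoxia targets supplied 4 of the rises (NDRG1, ADM, P4HA1 and MGARP), with SLC2A1, HK2, ALDOA, ALDOC, PGK1, SLC16A3, PDK4, PFKFB4 and EPAS1. The member median was 0.26, against 0.02 for all genes. Proliferation genes went from 900.0 to 911 CPM to 65.8 to 69.5 CPM and fibroblast markers from 4580 to 4650 CPM to 8060 to 8310 CPM. Endothelial markers went from 105 to 109 CPM to 238 to 249 CPM, although 7 of 11 were called lower and 2 higher, smooth muscle markers from 133 to 139 CPM to 70.5 to 72 CPM, and epithelial markers from 29 to 31.7 CPM to 15.1 to 16.6 CPM. The part of these in the result was not tested. Without any 1 of the 4 libraries, 8 rises were called in place of 13. PGK1 (0.32 to 0.39), SLC16A3 (0.43 to 0.55), PFKFB4 (0.46 to 0.61) and MGARP (0.47 to 0.53) lost their calls in all 4 of these fits, HK2 without control 2 (0.52) or doxorubicin 2 (0.51), and ALDOC without control 1 (0.64) or doxorubicin 1 (0.63). Scaled by totals, 8 were higher and 3 lower, and HK2 (0.38), PGK1 (0.19), SLC16A3 (0.33), PFKFB4 (0.36) and MGARP (0.34) were not called.

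With HRAS(G12v), 23 of 35 members rose and 6 fell, against 27.1% and 18.9% of all genes. The rises took in 6 of 9 enzymes of upper glycolysis, 5 of 6 of lower glycolysis, 3 of 4 lactate genes, 3 of 5 kinases and 4 of 7 hypoxia targets. SLC2A1, PFKP, ALDOC, CA9, MGARP and EPAS1 fell. Members had a median log2 fold change of 0.52, against 0.07 for all genes. Fibroblast markers went from 6160 to 7200 CPM with the empty vector to 1070 to 1180 CPM, and proliferation genes from 301 to 331 CPM to 65.9 to 67.6 CPM. Of 11 endothelial markers 10 were called higher and 1 lower, while their sum went from 75.2 to 77.9 CPM to 50.1 to 55.7 CPM, with VWF and KDR also under 1 CPM in both groups. Of 5 smooth muscle markers 4 were lower and 1 higher, at sums of 170 to 201 CPM and 213 to 247 CPM, and the part of these lists in the result was not tested. With only the compared groups 15 were higher and 7 lower, and by totals 15 and 8. Of the 23 rises, 8 were not called when only the compared groups were fitted or when libraries were scaled by totals: PFKM (0.37 and 0.25), GAPDH (0.36 and 0.24), ENO1 (0.30 and 0.18), LDHA (0.22 and 0.08), SLC16A3 (0.45 and 0.33), PFKFB3 (0.37 and 0.25), NDRG1 (0.35 and 0.23) and ADM (0.22 and 0.09). Without 1 library, LDHA (0.15 without empty vector 2, 0.31 without HRAS 1, 0.42 without HRAS 2) and CA9 (-1.05, -1.16 and -1.59, in the same order) lost their calls, as did PDK3 (1.47) and ADM (0.36) without HRAS 1, and ENO1 (0.42), PFKFB3 (0.46), NDRG1 (0.39) and ADM (0.38) without HRAS 2.

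In the doxorubicin repeat, LDHA, PDK4 and P4HA1 rose and ALDOC fell, 3 and 1 of 35, against 3.18% and 2.26% of 33612 genes. The median of the members was -0.09, against 0.04 for all genes, and the proliferation genes were at 116 to 158 CPM in these controls and at 79.3 to 80.7 CPM after the drug. Fibroblast markers went from 3690 to 5480 CPM to 7260 to 9140 CPM and epithelial markers from 24.6 to 49.6 CPM to 9.2 to 9.62 CPM. The sum of endothelial markers went from 97.4 to 144 CPM to 306 to 308 CPM. Of 10 tested, though, 1 was called higher and 1 lower, and 10 of 11 were under 1 CPM after the drug. Mitochondrial genes took 3.58% and 5.11% of counts in the controls and 5.78% and 5.61% after the drug, and the part of these was not tested. Without control 1 none of the 3 rises was called (LDHA 0.62, PDK4 3.31, P4HA1 0.92). Without doxorubicin 2, LDHA (0.74) and PDK4 (3.40) were not, and without doxorubicin 1, 5 members were called higher. Without control 2, 2 were called lower. The fit of all 37 libraries called 7 higher and 5 lower.

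Irradiated WI-38 had HK2, ENO2, PDK4, ADM, P4HA1 and EPAS1 higher and ALDOC lower, 6 and 1 of 35, against 8.89% and 6.09% of all genes. Over the members the median was 0.28, against -0.06 for all genes. Proliferation genes went from 629 to 647 CPM to 58.4 to 74.2 CPM and fibroblast markers from 5180 to 5460 CPM to 6940 to 7300 CPM. The sum of endothelial markers went from 62.4 to 62.6 CPM to 115 to 149 CPM. Of 10 tested, though, 1 was called higher and 1 lower, and 9 of 11 were under 1 CPM after radiation. Their median log2 fold change was -0.86. Epithelial markers went from 40.4 to 50.3 CPM to 19 to 23.2 CPM, with 2 of 6 called lower and 0 higher. Mitochondrial genes took 6.31% and 6.99% of the counts of the controls and 9.71% and 14.02% of those of the irradiated libraries. These 2 irradiated libraries differed more than any other replicates, at 534.3 chi-square units per degree of freedom, and the part of these signs in the result was not tested. The rise of ADM was called whichever library was left out. Without control 1, it was the only rise called, with HK2 at 0.84, ENO2 at 0.75, PDK4 at 4.89, P4HA1 at 0.81 and EPAS1 at 0.78. Without control 2, 2 rises were called, and ALDOC (-0.93), ENO2 (0.89), PDK4 (3.68), P4HA1 (0.73) and EPAS1 (0.91) were not. Irradiated 1 decided HK2 (0.71 without it) and P4HA1 (0.60), and irradiated 2 decided ENO2 (0.69). Without irradiated 1, 2 members were called lower, and without irradiated 2, 3 were. By DESeq2 size factors or library totals, 5 were higher and 3 lower, and the fit of all 37 libraries had 11 and 3.

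Late-passage WI-38 had 8 members higher (SLC2A1, HK2, PGAM1, PKM, LDHA, SLC16A3, PDK4 and NDRG1) and 3 lower (SLC2A3, ALDOC and SLC16A1), against 5.8% and 6.82% of all genes. The member median was 0.30, against 0.01 for all genes, and proliferation genes went from 154 to 160 CPM to 41.9 to 48.5 CPM. Fibroblast markers went from 5650 to 5760 CPM to 3710 to 3960 CPM, and the sum of endothelial markers from 159 CPM in both controls to 229 to 258 CPM. Of 10 endothelial markers tested, 1 was called higher and 0 lower. Under 1 CPM were 10 of 11 in the controls and 9 of 11 at late passage. Mitochondrial genes took 3.21% and 4.41% of the counts of the controls and 8.71% and 5.78% of those at late passage, and the part of these was not tested. HK2, PDK4 and ALDOC kept their calls whichever library was left out. Without proliferating 2, only 2 rises were called, with SLC2A1 at 1.11, PGAM1 at 0.70, PKM at 0.69, LDHA at 0.65, SLC16A3 at 1.31, NDRG1 at 0.89, SLC2A3 at -0.82 and SLC16A1 at -0.94. Without proliferating 1 or late passage 2, 4 rises were called in place of 8. In that order, PGAM1 (0.69 and 0.55), PKM (0.73 and 0.51), LDHA (0.72 and 0.72), SLC16A3 (1.41 and 0.61) and SLC2A3 (-0.90 and -0.61) were not called. SLC16A1 (-0.79) was also lost without late passage 2, and LDHA (0.65) without late passage 1. The fit of all 37 libraries called 15 higher and 6 lower.

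Glucose enters these cells through SLC2A1 and SLC2A3, the transporters GLUT1 and GLUT3. SLC2A1 stood at 12 and 11.5 CPM in HAEC controls and at 7.92, 7.85 and 7.77 CPM after radiation. In HUVEC it stood at 19.3, 17.4 and 17.3 CPM and then at 12.5, 12.8 and 13.2 CPM. In both endothelial types every irradiated library was below every control, with log2 fold changes of -0.58 ± 0.07 (SE, adjusted p = 4.56e-07) and -0.49 ± 0.06 (adjusted p = 7.94e-08). In IMR-90 the gene went the other way. The control libraries held 42.8 and 43.0 CPM, the irradiated 137.7 and 143 CPM and the late-passage 185.6 and 175.5 CPM. These are rises of 1.71 ± 0.06 (adjusted p = 1.99e-11) and 2.07 ± 0.06 (adjusted p = 2.93e-12) on the log2 scale, with no overlap. In WI-38, doxorubicin took it from 157.8 and 166.2 CPM to 317.3 and 332.1 CPM (1.00 ± 0.14, adjusted p = 0.000224), and late passage from 71.6 and 60.2 CPM to 150.1 and 157.5 CPM (1.22 ± 0.29, adjusted p = 0.0114). HRAS lowered it, from 232.2 and 305.5 CPM to 70.3 and 75.2 CPM (-1.89 ± 0.14, adjusted p = 7.5e-07). It did not pass the test in the doxorubicin repeat (1.01 ± 0.29, adjusted p = 0.0565) or in irradiated WI-38 (0.56 ± 0.29, adjusted p = 0.202).

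SLC2A3 often moved against SLC2A1. It rose with radiation in HAEC (0.30 ± 0.05, adjusted p = 3.78e-05) and in HUVEC (0.26 ± 0.04, adjusted p = 2.08e-05), and with HRAS it went from 98.5 and 109.7 CPM to 199.4 and 208.7 CPM (0.97 ± 0.12, adjusted p = 3.8e-05). It fell with late passage in IMR-90 (-0.42 ± 0.08, adjusted p = 0.000536) and in WI-38 (-0.88 ± 0.21, adjusted p = 0.0131). The log2 ratio of its counts to those of SLC2A1 within a library does not depend on scaling. That ratio was 1.07 to 1.23 in the IMR-90 controls and -1.52 to -0.71 in the irradiated and late-passage libraries. It went from -1.48 to -1.24 with the empty vector to 1.47 to 1.5 with HRAS. Pseudogenes of SLC2A3 held 4.37% to 61.9% of the counts of the gene and its pseudogenes together, and 30.44% of its 31-base stretches occur in other genes, so its counts are uncertain.

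**Figure D2:**
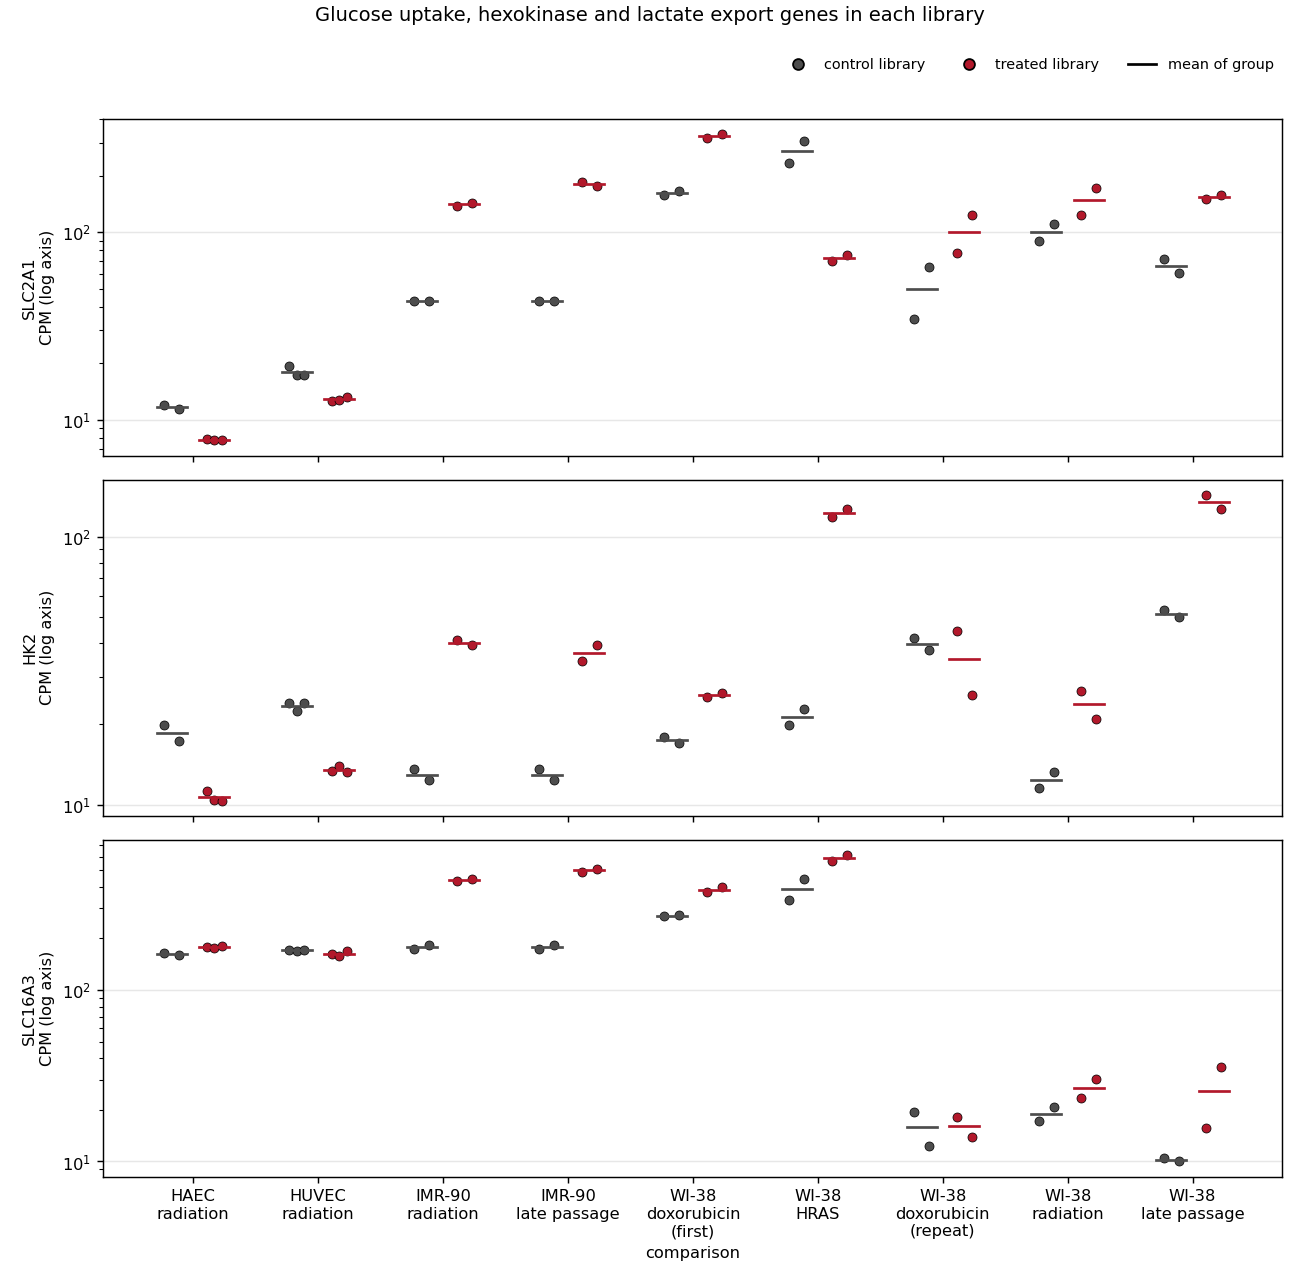
CPM (log axis) of SLC2A1, HK2 and SLC16A3 in each library of the 9 comparisons, grey for control, red for treated, with a line at each group mean; IMR-90 controls are drawn in both of their comparisons. SLC2A1 and HK2 are lower after radiation in both endothelial cells and higher in both IMR-90 comparisons, and SLC2A1 is lower with HRAS while HK2 is higher.

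Hexokinase traps glucose in the cell as glucose 6-phosphate, and HK2 is its inducible, HIF-responsive form. HK2 stood at 19.9 and 17.3 CPM in HAEC controls and at 11.3, 10.5 and 10.4 CPM after radiation, and in HUVEC it went from 24.0, 22.3 and 24.1 CPM to 13.4, 14 and 13.3 CPM. The falls were -0.80 ± 0.07 (adjusted p = 3.39e-09) and -0.79 ± 0.05 (adjusted p = 3e-12). In IMR-90 it rose from 13.6 and 12.4 CPM to 41.1 and 39.4 CPM with radiation (1.63 ± 0.08, adjusted p = 5.44e-10) and to 34.4 and 39.3 CPM with passage (1.5 ± 0.08, adjusted p = 1.21e-09). No treated library overlapped a control in these 4 comparisons. The largest rise came with HRAS, from 20 and 22.7 CPM to 118.4 and 126.7 CPM (2.52 ± 0.13, adjusted p = 2.98e-08). HK2 rose as well in late-passage WI-38, from 53.2 and 50.2 CPM to 143.1 and 127.1 CPM (1.39 ± 0.24, adjusted p = 0.00122), with doxorubicin (0.56 ± 0.12, adjusted p = 0.00537) and in irradiated WI-38 (0.93 ± 0.24, adjusted p = 0.0145). In the doxorubicin repeat the groups overlapped, at 41.9 and 37.7 CPM and 44.4 and 25.7 CPM. HK1, the constitutive form, rose by 0.77 and 0.86 in the IMR-90 comparisons and by 1.00 ± 0.15 with HRAS (adjusted p = 0.000227), and fell in HUVEC (-0.20 ± 0.04, adjusted p = 0.000241). A share of 15.53% of the 31-base stretches of HK2 occurs in other genes, chiefly its pseudogene, whose counts were at most 0.565% of the pair.

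Phosphofructokinase commits the sugar to glycolysis, and its platelet form PFKP fell in 3 comparisons and rose in none. It went from 182.5 and 188.3 CPM to 102.6 and 104.9 CPM with doxorubicin (-0.84 ± 0.13, adjusted p = 0.000519) and from 175.6 and 220.8 CPM to 105.8 and 109.9 CPM with HRAS (-0.88 ± 0.13, adjusted p = 0.000177). HAEC gave the other fall (-0.22 ± 0.04, adjusted p = 2.91e-05). The treated libraries were below the controls in all of these. The muscle form PFKM fell in both IMR-90 comparisons (-0.29 and -0.44) and rose with HRAS (0.52). The liver form PFKL rose in both IMR-90 comparisons (0.28 and 0.41) and fell slightly in HAEC (-0.11). GPI, which turns glucose 6-phosphate into fructose 6-phosphate, fell in HAEC (-0.28 ± 0.04), rose with late passage in IMR-90 (0.17 ± 0.06) and rose with HRAS (0.81 ± 0.14, adjusted p = 0.000647).

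The aldolases split the fructose bisphosphate. ALDOA, the common form, went from 111.7 and 122.2 CPM to 223.3 and 245.7 CPM with doxorubicin (1.00 ± 0.14, adjusted p = 0.000245) and from 159.8 and 193.5 CPM to 281.4 and 339.8 CPM with HRAS (0.81 ± 0.14, adjusted p = 0.000555). Its IMR-90 rises of 0.16 and 0.17 are those that turned negative under the other scaling. ALDOC, the form best known from brain, was low throughout, and fell in 6 of the 9 comparisons. In late-passage WI-38 it went from 16.5 and 15.8 CPM to 5.11 and 3.71 CPM (-1.87 ± 0.24, adjusted p = 0.000133). With HRAS it went from 8.41 and 10.6 CPM to 2.82 and 2.95 CPM (-1.72 ± 0.16, adjusted p = 4.06e-06). The doxorubicin repeat took it from 19.1 and 18.2 CPM to 8.54 and 5.79 CPM (-1.38 ± 0.24, adjusted p = 0.00366). In the first doxorubicin experiment it moved the other way, from 5.05 and 5.39 CPM to 8.77 and 8.10 CPM (0.69 ± 0.15, adjusted p = 0.00567). It also rose in HUVEC (0.42 ± 0.10, adjusted p = 0.0013). TPI1, which interconverts the triose phosphates, fell in HAEC (-0.33) and HUVEC (-0.26), rose in IMR-90 (0.26 and 0.24), and rose with HRAS from 472.9 and 590.9 CPM to 1017 and 1009 CPM (0.93 ± 0.13, adjusted p = 0.000102).

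The enzymes from GAPDH to PKM carry out the energy-yielding steps. ENO1, the common enolase, stood at 1914 and 1885 CPM in HAEC controls and at 1302, 1321 and 1319 CPM after radiation (-0.53 ± 0.03, adjusted p = 3.68e-13), and at 1309 and 1338 CPM before and 677.4 and 677.5 CPM after doxorubicin (-0.97 ± 0.13, adjusted p = 0.000119). HUVEC fell less, by 0.29 ± 0.03 (adjusted p = 1.07e-07) on the log2 scale. It rose in IMR-90 with radiation (0.38 ± 0.06) and with passage (0.24 ± 0.06), and with HRAS (0.45 ± 0.12). PKM, the pyruvate kinase gene, rose in IMR-90 from 734.2 and 772.4 CPM to 1366 and 1349 CPM with radiation (0.85 ± 0.06, adjusted p = 2.2e-08) and to 1411 and 1329 CPM with passage (0.86 ± 0.06, adjusted p = 1.77e-08). In HAEC it fell by 0.34 ± 0.03 (adjusted p = 2.05e-09) on the log2 scale. The counts do not separate its M1 and M2 splice forms.

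PGK1, phosphoglycerate kinase, had its largest rise with HRAS, from 306.9 and 336.8 CPM to 758.7 and 760.1 CPM (1.24 ± 0.12, adjusted p = 4.01e-06). It fell in HAEC (-0.26 ± 0.03) and HUVEC (-0.21 ± 0.04). PGAM1, phosphoglycerate mutase, fell in the same 2 comparisons (-0.38 and -0.30) and rose in both IMR-90 comparisons (0.45 ± 0.06 and 0.62 ± 0.06), with HRAS (0.74 ± 0.12) and in late-passage WI-38 (0.67 ± 0.18). GAPDH, often used as a reference gene, went from 1931 and 2365 CPM to 2894 and 3221 CPM with HRAS (0.51 ± 0.13, adjusted p = 0.0058) and rose by 0.29 and 0.27 in IMR-90. In HAEC (-0.05) and HUVEC (-0.01) it did not pass the test. ENO2, the neuronal enolase, was at 2.85 to 34.2 CPM over all libraries; it fell in HAEC (-0.51) and in both IMR-90 comparisons (-0.34 and -0.63) and rose with HRAS (0.80 ± 0.15) and in irradiated WI-38 (0.81 ± 0.25). PGAM1 shares 35.71% of its 31-base stretches with other genes, PGAM4 among them, and GAPDH 29.1%, in part with pseudogenes, so small changes in either are uncertain.

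Lactate dehydrogenase LDHA favours lactate and LDHB favours pyruvate. LDHA fell after radiation from 274.2 and 268.3 CPM to 199.4, 210.9 and 201 CPM in HAEC (-0.41 ± 0.03, adjusted p = 1.65e-09) and from 256.7, 266.4 and 267.8 CPM to 211.7, 210.7 and 203.5 CPM in HUVEC (-0.34 ± 0.04, adjusted p = 2.87e-08). In neither did the groups overlap. It rose in late-passage IMR-90 (0.32 ± 0.07), with HRAS (0.36 ± 0.12), in late-passage WI-38 (0.67 ± 0.17) and in the doxorubicin repeat, from 398.4 and 491 CPM to 744.6 and 764.3 CPM (0.76 ± 0.17, adjusted p = 0.0156). In the first doxorubicin experiment it stood at 275.3 and 278.1 CPM and at 229.4 and 214 CPM (-0.32 ± 0.12, adjusted p = 0.0789). The empty vector libraries held LDHA at 168.7 and 142.7 CPM and the HRAS libraries at 207.7 and 192.3 CPM. Both groups were thus below the untreated cells of the same set. LDHB fell in HUVEC (-0.16 ± 0.04) and in late-passage IMR-90 (-0.32 ± 0.06). The 2 empty vector libraries differed in LDHB, at 201.4 and 106.5 CPM, as did the HRAS libraries, at 232 and 165.8 CPM, and the gene did not pass the test there (0.37 ± 0.24, adjusted p = 0.228).

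SLC16A3, the lactate exporter MCT4, rose in 6 comparisons and fell in none. In IMR-90 it went from 172.4 and 184.2 CPM to 433.3 and 443.1 CPM with radiation (1.30 ± 0.06, adjusted p = 3.53e-10) and to 486.6 and 510.8 CPM with passage (1.48 ± 0.06, adjusted p = 8.85e-11). With HRAS it went from 336.8 and 443.2 CPM to 568.5 and 609.5 CPM (0.60 ± 0.14, adjusted p = 0.00403), and with doxorubicin from 268.6 and 273.8 CPM to 371.5 and 397.1 CPM (0.50 ± 0.14, adjusted p = 0.0181). The HAEC rise was small (0.13 ± 0.03, adjusted p = 0.00183). Late-passage WI-38 libraries differed among themselves, at 15.6 and 35.7 CPM over controls at 10.5 and 10.0 CPM (1.33 ± 0.33, adjusted p = 0.0151). SLC16A1, the transporter MCT1, which carries lactate and pyruvate either way, rose with HRAS from 28.5 and 18.5 CPM to 86.4 and 71.9 CPM (1.75 ± 0.18, adjusted p = 1.1e-05). It fell in late-passage WI-38 from 35.8 and 40.9 CPM to 22.2 and 15.1 CPM (-1.04 ± 0.23, adjusted p = 0.00727) and slightly in HAEC (-0.09 ± 0.03).

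PDK4 (ENSG00000004799) inhibits pyruvate dehydrogenase and is best known as a gene of fasting. It was the only member called in every comparison. In the doxorubicin repeat its call was lost without control 1 (3.31) or doxorubicin 2 (3.40). In irradiated WI-38 the call of PDK4 was lost without control 1 (4.89) or control 2 (3.68). In HAEC it went from 1.59 and 1.24 CPM to 6.54, 7.06 and 7.89 CPM (2.32 ± 0.12, adjusted p = 3.3e-12), and in HUVEC from 2.28, 2.92 and 2.63 CPM to 6.28, 6.47 and 7.4 CPM (1.36 ± 0.10, adjusted p = 5.23e-11). The only falls were in IMR-90. The PDL 15 controls held 149.9 and 110.7 CPM, irradiated cells 3.21 and 3.28 CPM and late-passage cells 4.38 and 6.07 CPM. These are log2 fold changes of -5.33 ± 0.16 (adjusted p = 6.07e-12) and -4.64 ± 0.15 (adjusted p = 1.26e-11). The groups did not overlap in any of these 4 comparisons.

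In WI-38, PDK4 was near 0 in every control. Doxorubicin took it from 0.142 and 0.162 CPM to 4.38 and 5.91 CPM (5.08 ± 0.32, adjusted p = 2.69e-07), and in the repeat from 0.0310 and 0.203 CPM to 1.24 and 2.77 CPM (4.09 ± 0.92, adjusted p = 0.0177). Late passage took it from 0.110 and 0.143 CPM to 0.787 and 7.50 CPM (5.05 ± 0.97, adjusted p = 0.00288), so the 2 treated libraries differed widely. With HRAS there were 82 reads against 2 with the empty vector, a ratio of 48.8 (95% exact interval 13.1 to 410.0, adjusted p = 1.76e-05). After radiation there were 133 reads against 8, a ratio of 17 (8.4 to 40.3, adjusted p = 0.0249), and these intervals cover counting error only. Every treated WI-38 library was above every control of its own comparison.

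**Figure D3:**
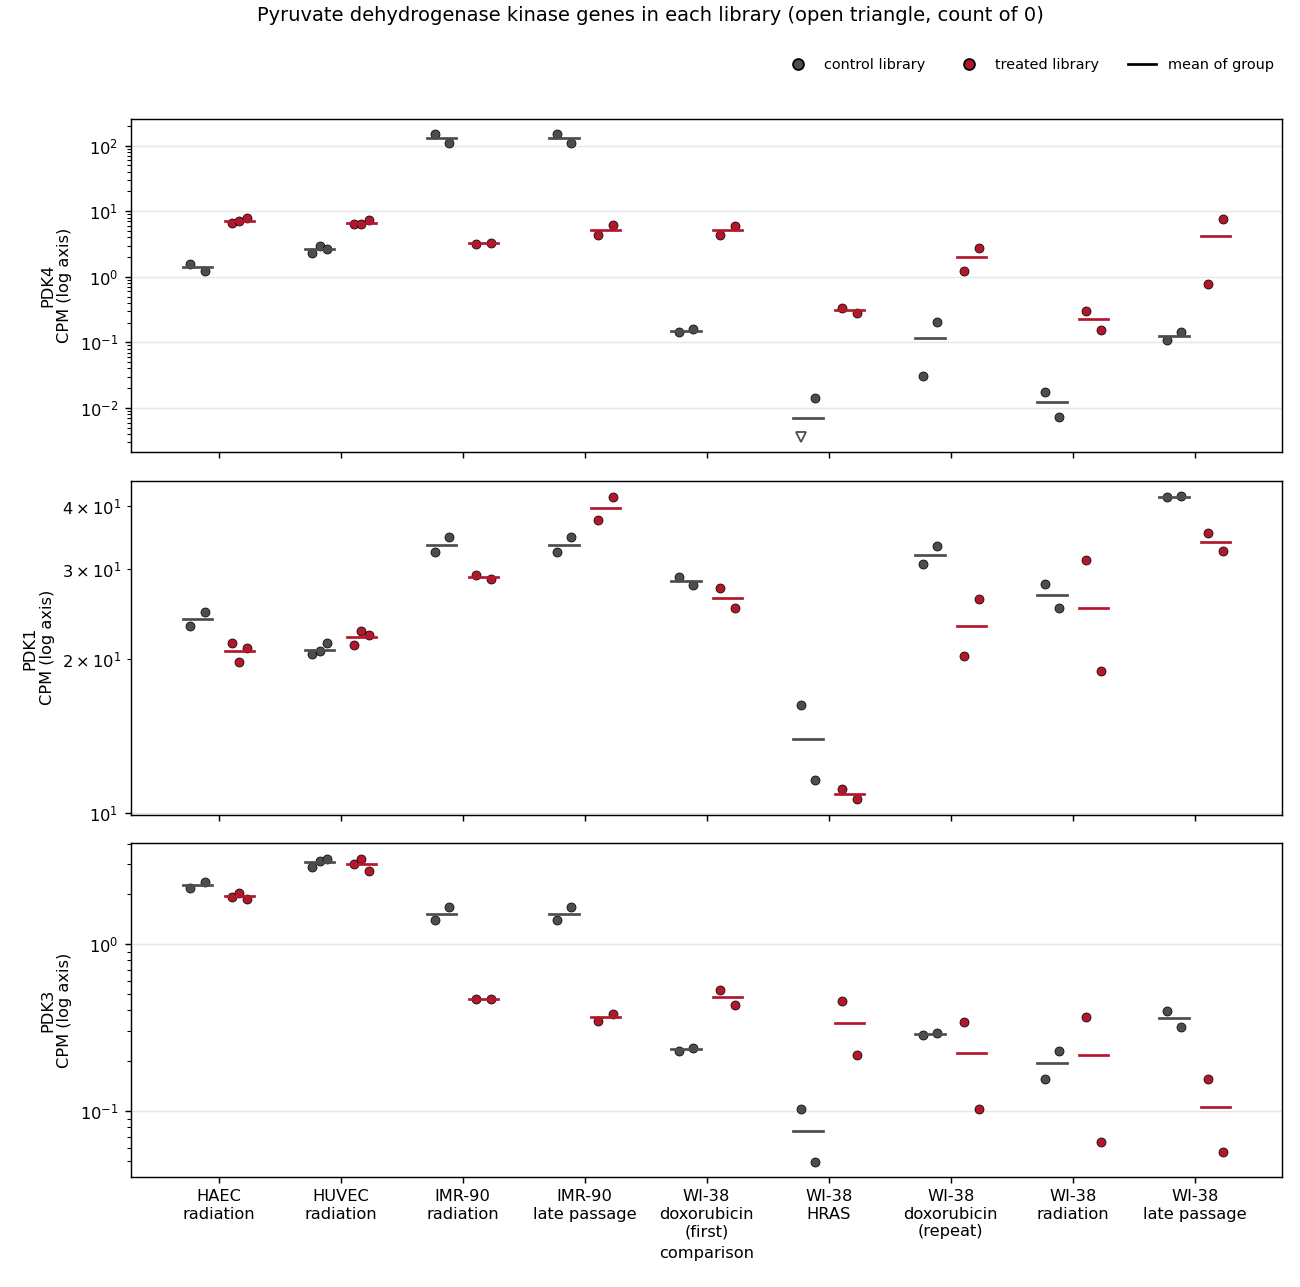
Levels of the pyruvate dehydrogenase kinase genes in each library of the 9 comparisons, as CPM (log axis), grey for control and red for treated, with a line at each group mean and an open triangle for a count of 0. PDK4 is lower after treatment in the IMR-90 comparisons, from 110.7 CPM or more to 6.07 CPM or less, and higher after treatment in the other 7.

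The other kinases moved less. PDK1, a classic HIF target that likewise shuts pyruvate dehydrogenase, fell in HAEC (-0.21 ± 0.05, adjusted p = 0.00347) and in irradiated IMR-90 (-0.21 ± 0.07, adjusted p = 0.0186) and rose in late-passage IMR-90 (0.24 ± 0.07, adjusted p = 0.00764). PDK3 went from 1.39 and 1.66 CPM in the IMR-90 controls to 0.470 and 0.471 CPM with radiation (-1.69 ± 0.24, adjusted p = 3.31e-05) and 0.346 and 0.382 CPM with passage (-2.06 ± 0.24, adjusted p = 6.77e-06). With HRAS it rose from 0.103 and 0.0497 CPM to 0.456 and 0.216 CPM (2.11 ± 0.52, adjusted p = 0.0059). PFKFB3 and PFKFB4 make and break fructose 2,6-bisphosphate, which drives phosphofructokinase. PFKFB3 rose with HRAS (0.52 ± 0.14) and late passage in IMR-90 (0.21 ± 0.07) and fell in HUVEC (-0.18 ± 0.05). PFKFB4 fell in both IMR-90 comparisons (-0.37 and -0.38) and rose with doxorubicin (0.54 ± 0.15) and in HUVEC (0.26 ± 0.10).

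Among the hypoxia targets, NDRG1, a stress-response gene, stood at 64.8 and 63.8 CPM in HAEC and at 31.4, 29.1 and 31.5 CPM after radiation (-1.07 ± 0.04, adjusted p = 2.24e-14). In IMR-90 it went from 72.4 and 75.0 CPM to 29.8 and 30.4 CPM with radiation (-1.29 ± 0.06, adjusted p = 9.46e-10) and to 39.9 and 44.6 CPM with passage (-0.80 ± 0.06, adjusted p = 1.11e-07). No irradiated or late-passage library reached a control. It rose in WI-38 with doxorubicin, from 30.1 and 28.9 CPM to 61.9 and 62.2 CPM (1.07 ± 0.13, adjusted p = 9.39e-05), with late passage, from 91.5 and 85.4 CPM to 176.7 and 160.9 CPM (0.93 ± 0.19, adjusted p = 0.00516), and with HRAS (0.50 ± 0.13, adjusted p = 0.00864). HUVEC libraries held 28.3, 26.8 and 27.7 CPM before and 25.5, 26.2 and 25.2 CPM after radiation (-0.11 ± 0.04, adjusted p = 0.0503).

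ADM encodes adrenomedullin, a peptide that widens vessels. It went from 24.8, 27.1 and 24.5 CPM to 39.1, 41.5 and 41.4 CPM in HUVEC (0.68 ± 0.05, adjusted p = 8.52e-12), from 170.7 and 165.4 CPM to 329.4 and 327.9 CPM with doxorubicin (0.97 ± 0.11, adjusted p = 5.39e-05) and from 108.9 and 115 CPM to 221.2 and 255.5 CPM in irradiated WI-38 (1.09 ± 0.19, adjusted p = 0.00143). HRAS gave a smaller rise (0.36 ± 0.11). P4HA1, a subunit of the prolyl hydroxylase of collagen, rose in 5 comparisons, of which 4 were in WI-38. Doxorubicin took it from 159.3 and 158.3 CPM to 391.4 and 369 CPM (1.26 ± 0.19, adjusted p = 0.000349) and in the repeat from 74.0 and 92.5 CPM to 181.2 and 169.5 CPM (1.08 ± 0.19, adjusted p = 0.0039). HRAS (1.15 ± 0.19), radiation of WI-38 (0.76 ± 0.19) and late passage of IMR-90 (0.35 ± 0.07) raised it as well, and it fell in HAEC (-0.26 ± 0.04). BNIP3, which marks mitochondria for removal, passed the test once, with HRAS, from 27.8 and 17.5 CPM to 64.0 and 50.4 CPM (1.34 ± 0.20, adjusted p = 0.000149). Its 42 pseudogenes held 6.12% to 42.1% of the joint counts. CA9, a carbonic anhydrase strongly induced by HIF, and EGLN3, an oxygen-sensing hydroxylase that HIF induces, were under 1 CPM in the group means of every comparison. CA9 fell in late-passage IMR-90 (-1.01 ± 0.39, adjusted p = 0.0433) and with HRAS (-1.38 ± 0.52, adjusted p = 0.0478). Its exons overlap those of ARHGEF39 on the opposite strand, and 32.68% of its 31-base stretches occur there. The strand setting is not given, so the few counts of CA9 are uncertain.

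MGARP (ENSG00000137463), a mitochondrial protein gene that responds to HIF, had the largest rise of any member in irradiated HAEC. It stood at 2.80 and 2.77 CPM in HAEC controls and at 50, 53.7 and 53.1 CPM after radiation (4.23 ± 0.06, adjusted p = 8.04e-21). HUVEC controls held 35.6, 35.5 and 39.2 CPM, and the irradiated libraries 46.4, 47.9 and 46.5 CPM (0.35 ± 0.04, adjusted p = 2.05e-07). In IMR-90 it rose from 14 and 13.9 CPM to 30.9 and 30.8 CPM with radiation and to 36.4 and 39.7 CPM with passage (1.14 ± 0.07 and 1.45 ± 0.07). HRAS did the reverse, from 23.3 and 16.9 CPM to 1.10 and 0.822 CPM (-4.38 ± 0.20, adjusted p = 1.43e-08). Exons of MGARP overlap those of NDUFC1 on the same strand, and 25.21% of its 31-base stretches also occur there, so part of its counts cannot be assigned to it with certainty.

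EPAS1 (ENSG00000116016) encodes the alpha subunit of HIF-2, known for its role in endothelium, and HIF1A (ENSG00000100644) that of HIF-1. EPAS1 rose in HAEC from 58.1 and 57.5 CPM to 184.2, 169.4 and 164.5 CPM (1.58 ± 0.04, adjusted p = 7.21e-17) and in HUVEC from 58.0, 54.4 and 52.6 CPM to 110.1, 116 and 113.4 CPM (1.04 ± 0.04, adjusted p = 4.06e-16). It rose with doxorubicin, from 140.4 and 144.1 CPM to 258.8 and 251.7 CPM (0.84 ± 0.13, adjusted p = 0.000529), and in irradiated WI-38, from 339.7 and 370.3 CPM to 623.3 and 645.2 CPM (0.84 ± 0.21, adjusted p = 0.0131). The groups are separate in all 4. HRAS took it down, from 245.4 and 289.2 CPM to 71.0 and 85.0 CPM (-1.78 ± 0.14, adjusted p = 7.5e-07), and it fell in late-passage IMR-90 (-0.30 ± 0.06, adjusted p = 0.00138).

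HIF1A did the opposite with HRAS, rising from 109.2 and 86.0 CPM with the empty vector to 308.8 and 258.5 CPM (1.54 ± 0.15, adjusted p = 4.75e-06). In untreated WI-38 of the same set HIF1A stood at 224.7 and 214.1 CPM, between the empty vector and HRAS levels. In IMR-90 it fell from 432.7 and 405.6 CPM to 315 and 298.7 CPM with radiation (-0.45 ± 0.07, adjusted p = 8.49e-05) and to 286.1 and 327.8 CPM with passage (-0.45 ± 0.07, adjusted p = 8.55e-05). It rose slightly in HAEC (0.16 ± 0.03, adjusted p = 0.000636). The log2 ratio of EPAS1 to HIF1A counts within a library, free of scaling, went from -1.26 to -1.25 in HAEC controls to 0.06 to 0.27 after radiation, and from -1.69 to -1.46 to -0.55 to -0.52 in HUVEC. With HRAS it went from 1.17 to 1.75 in the empty vector libraries to -2.12 to -1.60.

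**Figure D4:**
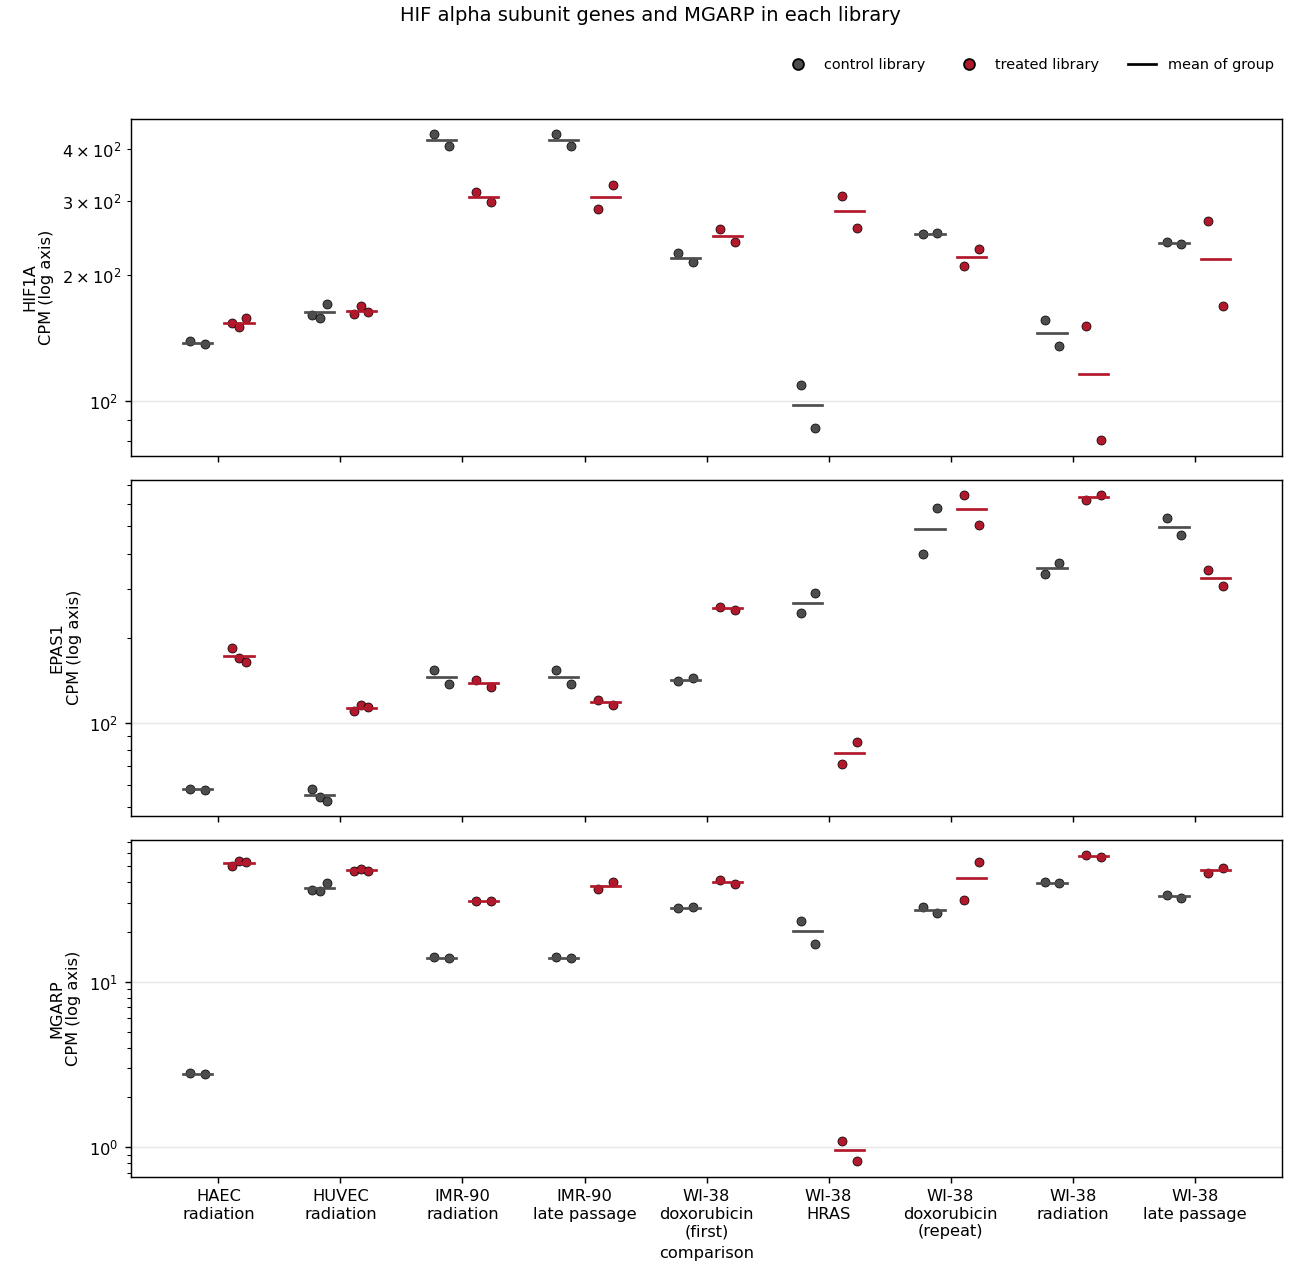
CPM (log axis) of HIF1A, EPAS1 and MGARP in each library of the 9 comparisons, grey for control, red for treated, with a line at each group mean; IMR-90 controls are drawn in both of their comparisons. EPAS1 is higher after radiation in HAEC and HUVEC and lower with HRAS, HIF1A is higher with HRAS, and MGARP spans 0.822 to 57.9 CPM.

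Other genes of the pathways were counted from lists that do not overlap the members. The counts are descriptions, and the share of all genes that rose and fell is given beside the first list and holds for the others. Of 28 other hypoxia targets, 14 rose and 7 fell in irradiated HAEC (all genes 19.7% and 19.9%), 12 and 9 in irradiated HUVEC (18.6% and 20.1%), 4 and 18 in irradiated IMR-90 (26.6% and 22.5%) and 5 and 18 in late-passage IMR-90 (26.6% and 23.5%). In WI-38 they were 18 and 0 with doxorubicin (13.6% and 13.2%), 20 and 3 with HRAS (27.1% and 18.9%), 6 and 1 in the doxorubicin repeat (3.18% and 2.26%), 15 and 0 after radiation (8.89% and 6.09%) and 2 and 6 at late passage (5.8% and 6.82%). Their median log2 fold changes, in the same order, were 0.16, 0.04, -0.50, -0.39, 0.79, 0.94, 0.16, 0.72 and -0.23. DDIT4, an inhibitor of mTOR signalling, rose from 72.3 ± 3.17 to 180 ± 2.01 CPM (SD) in HAEC (1.32 ± 0.04, adjusted p = 6.31e-17) and from 23.2 to 86.4 CPM in HUVEC, and fell from 114 to 13.6 CPM in irradiated IMR-90 (-3.08 ± 0.08, adjusted p = 1.89e-12). VEGFA, the vessel growth factor, fell there as well, from 86.2 to 18.2 CPM (-2.24 ± 0.09), while LOX (78.8 to 340.0 CPM) and PLOD2 (92.5 to 294 CPM), which crosslink collagen, rose. AK4, an adenylate kinase of mitochondria, rose in WI-38 with doxorubicin (1.78 to 15.9 CPM, 3.16 ± 0.16), in the repeat (1.94 to 15.5 CPM, 3.00 ± 0.27) and after radiation (1.17 to 13.1 CPM, 3.49 ± 0.28). With HRAS, ANGPTL4, a lipase inhibitor, went from 1.67 to 211 CPM (6.99 ± 0.21, adjusted p = 1.53e-09) and PLOD2 from 110.0 to 1000 CPM (3.19 ± 0.17).

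Genes of routes that compete with lactate were counted in the same way. Of 11 genes for pyruvate entry into mitochondria, 6 rose and 4 fell in irradiated IMR-90, 6 and 3 in late-passage IMR-90 and 7 and 1 with HRAS. In HAEC the counts were 4 and 3, in HUVEC 2 and 5, with doxorubicin 2 and 4, in the repeat 1 and 1, in irradiated WI-38 3 and 0 and in late-passage WI-38 1 and 2. MPC2, a subunit of the mitochondrial pyruvate carrier, rose in IMR-90 from 27.9 to 91.3 CPM with radiation (1.71 ± 0.07, adjusted p = 2.43e-10) and to 96.2 CPM with passage. DLAT, a subunit of pyruvate dehydrogenase, fell in HAEC (46.0 to 31.8 CPM, -0.53 ± 0.04) and HUVEC (63.4 to 42.5 CPM, -0.58 ± 0.04). Of 8 genes of the pentose phosphate pathway, which makes NADPH, 6 fell and 1 rose in irradiated IMR-90 and 5 and 1 in late-passage IMR-90. In HAEC 3 rose and 4 fell, in HUVEC 4 and 2, with doxorubicin 2 and 2, with HRAS 1 and 2, in the repeat 0 and 1, in irradiated WI-38 0 and 2 and in late-passage WI-38 1 and 1. TKT, transketolase, fell in IMR-90 from 311 to 140.0 CPM with radiation and to 139 CPM with passage, and rose in HAEC (330.0 to 444 CPM) and HUVEC (306 to 402 CPM). Of 18 other glycolytic genes, of which 11 to 17 were tested, 3 rose and 4 fell in HAEC, 4 and 4 in HUVEC, 5 and 3 in irradiated IMR-90, 6 and 3 in IMR-90 of late passage, 7 and 2 with doxorubicin, 6 and 2 with HRAS, 2 and 0 in the repeat, 4 and 0 in WI-38 given radiation and 2 and 0 in WI-38 of late passage. TIGAR, a phosphatase that slows glycolysis, rose in HAEC (12 to 18.4 CPM, 0.62 ± 0.06) and in irradiated (6.69 to 20.6 CPM, 1.62 ± 0.09) and late-passage IMR-90 (to 17.8 CPM, 1.41 ± 0.09). Of 11 HIF partners and regulators, 5 rose and 1 fell in HAEC, 4 and 2 in HUVEC, 7 and 2 in irradiated IMR-90, 7 and 3 in IMR-90 of late passage, 2 and 2 with doxorubicin, 8 and 1 with HRAS, 0 and 0 in the repeat, and 1 and 1 in both irradiated and late-passage WI-38. ARNT2, a partner subunit, fell with HRAS from 24.4 to 4.39 CPM (-2.47 ± 0.15), and CITED2, which competes with HIF for its coactivator, rose in both IMR-90 comparisons (21.9 to 108 and 109 CPM). Values without a stated error in these 2 paragraphs are means of groups called at an adjusted p below 0.05.

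HRAS and doxorubicin were applied to the same strain, and their responses were set against each other directly. Their libraries lie in the same set as grouped here, but the titles do not say that they were prepared together. The response differed for 21 of 35 members, 13 higher and 8 lower with HRAS, against 35.6% of all 29380 genes called in either direction. HK2 (1.96 ± 0.18, adjusted p = 6.21e-06), ENO1 (1.41 ± 0.18, adjusted p = 8.1e-05) and SLC16A1 (1.83 ± 0.25, adjusted p = 0.00018) had the firmest differences in favour of HRAS. MGARP (-4.89 ± 0.26, adjusted p = 1.06e-07), SLC2A1 (-2.89 ± 0.20, adjusted p = 8.82e-07) and EPAS1 (-2.62 ± 0.19, adjusted p = 1.17e-06) had those in favour of doxorubicin. SLC2A1, ALDOC, MGARP and EPAS1 fell with HRAS and rose with doxorubicin, and ENO1 did the reverse. For PDK4 the difference was 0.35 ± 0.70 (adjusted p = 0.745), for P4HA1 -0.11 ± 0.26 (adjusted p = 0.788) and for PFKP -0.04 ± 0.18 (adjusted p = 0.898). The controls differ, untreated cells for the drug and infected, puromycin-selected cells for HRAS. Leaving out doxorubicin 2 left 7 members higher with HRAS, and leaving out HRAS 1 or any 1 of the doxorubicin and doxorubicin control libraries left 5 lower.

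**Figure D5:**
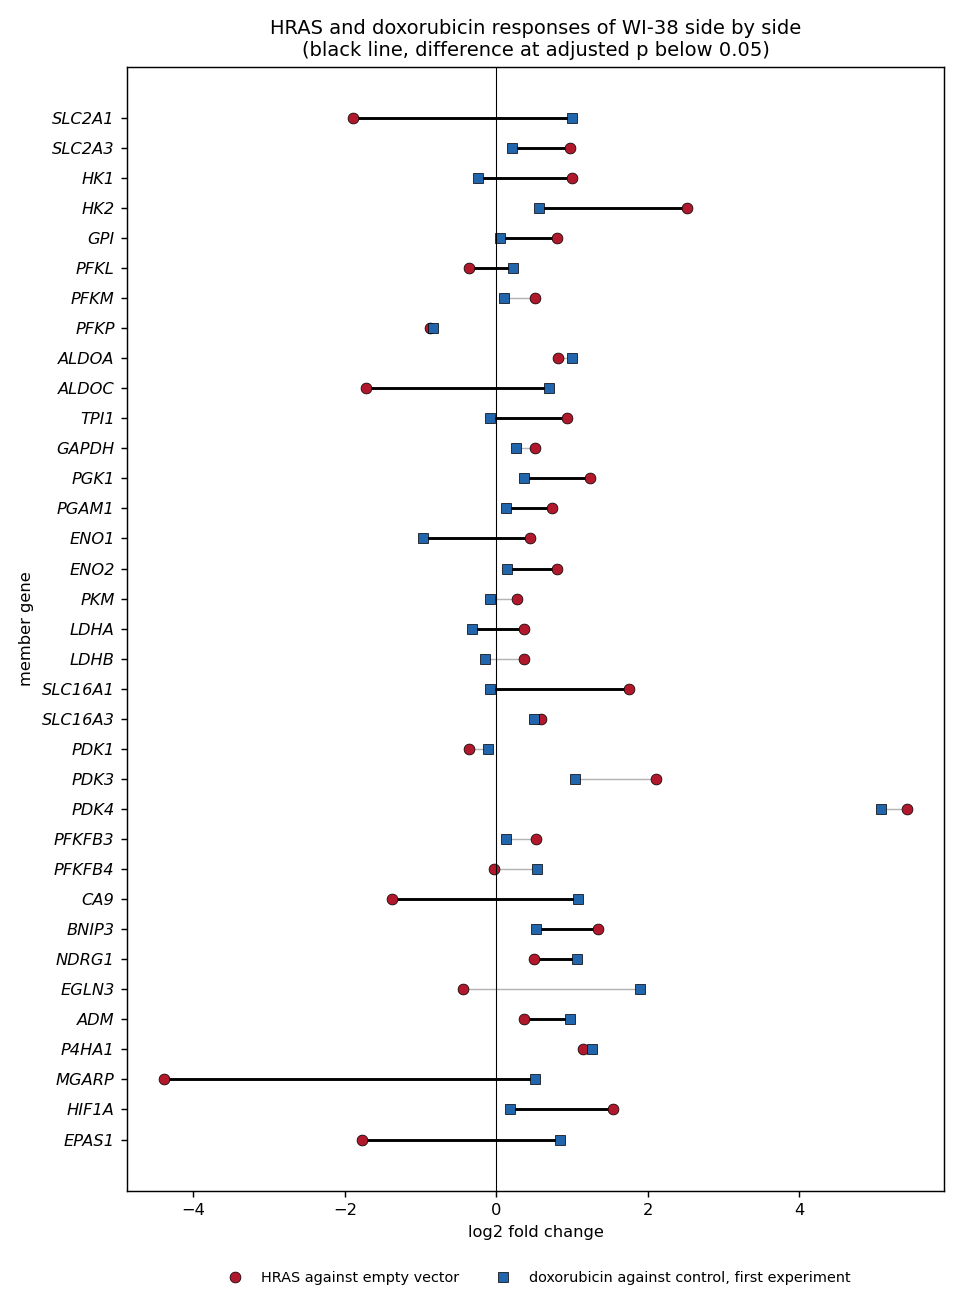
Log2 fold change of each member (vertical axis) with HRAS against the empty vector (circles) and with doxorubicin against control in the first experiment (squares), joined by a line that is black where the difference had an adjusted p below 0.05. SLC2A1, ALDOC, MGARP and EPAS1 lie on opposite sides of 0, lower with HRAS, and the points of PFKP and P4HA1 nearly coincide.

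The radiation responses of HAEC and HUVEC were set against each other. Of the 35 members, 8 responded more positively in HUVEC and 5 more negatively, against 18% of all genes called in either direction. The largest difference was in MGARP (-3.88 ± 0.07, adjusted p = 4.46e-23). HUVEC also rose less in PDK4 (-0.96 ± 0.17, adjusted p = 0.000102) and EPAS1 (-0.54 ± 0.06, adjusted p = 2.78e-07). NDRG1 (0.96 ± 0.06, adjusted p = 2.16e-12), ADM (0.61 ± 0.07, adjusted p = 1.1e-07) and ENO1 (0.24 ± 0.04, adjusted p = 2.22e-05) were the firmest of those in the other direction. With all 37 libraries in 1 fit, 10 of these calls were lost, PDK4 (-1.02), EPAS1 (-0.59) and ENO1 (0.18) among them. MGARP, NDRG1 and ADM kept theirs. When 1 library was left out, calls were lost only for GPI, ENO2, PDK1, P4HA1 and HIF1A. HAEC and HUVEC form separate library sets, so cell type and set cannot be told apart. Direct differences for HK2 (0.01 ± 0.09, adjusted p = 0.963) and SLC2A1 (0.09 ± 0.09, adjusted p = 0.561) did not pass the test.

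The responses of the fibroblast strains differed in PDK4 and NDRG1 for both radiation and late passage. Both IMR-90 responses rest on the same 2 control libraries, so the 2 results are not independent. Those controls held PDK4 at 149.9 and 110.7 CPM. Their proliferation sum of 284 to 291 CPM was below the 429 to 431 CPM of irradiated IMR-90, and its part in the result was not tested. For radiation, WI-38 minus IMR-90, 6 members were higher and 5 lower, against 19.9% of all genes, with PDK4 at 9.34 ± 1.33 (adjusted p = 3.92e-05), NDRG1 at 1.69 ± 0.23 (adjusted p = 2.38e-05) and ADM at 0.93 ± 0.23 (adjusted p = 0.00686). PKM (-1.22 ± 0.27, adjusted p = 0.00236), ENO1 (-1.09 ± 0.27, adjusted p = 0.00624) and HK1 (-1.05 ± 0.27, adjusted p = 0.00877) were lower. For late passage 3 were higher and 4 lower (4 and 1 by library totals), against 11.9% of all genes. PDK4 was at 9.69 ± 1.10 (adjusted p = 5.5e-06) and NDRG1 at 1.71 ± 0.23 (adjusted p = 3.9e-05), and ENO2 (1.11 ± 0.30, adjusted p = 0.0208), ALDOC (-1.34 ± 0.29, adjusted p = 0.00354), P4HA1 (-0.88 ± 0.23, adjusted p = 0.0136) and SLC16A1 (-1.0 ± 0.26, adjusted p = 0.0163) were the others named by the rule. Leaving out WI-38 control 2 left 1 member lower for radiation, IMR-90 proliferating 2 left 2 lower, and IMR-90 irradiated 2 left 3 higher. For late passage, 1 to 2 members were lower without any 1 of 7 of the 8 libraries compared, all but WI-38 late passage 1. For radiation, HK1 lost its call without IMR-90 proliferating 2 (-0.97) and without WI-38 control 2 (-0.87), as did ENO1 without WI-38 control 2 (-0.85). For late passage, P4HA1 lost its call without any 1 of IMR-90 proliferating 1 or 2, IMR-90 late passage 2, WI-38 proliferating 1 or 2 and WI-38 late passage 2 (-0.87 to -0.70). SLC16A1 lost its own without any of these but WI-38 proliferating 1, and without IMR-90 late passage 1 (-0.98 to -0.72). ENO2 lost its call without IMR-90 proliferating 1, IMR-90 late passage 1 or either proliferating WI-38 library (1.01 to 1.16). These differences cross library sets that differ in composition, with mitochondrial shares of 3.208% to 14.02% and 0.1005% to 0.6065%. Controls and irradiated cells were at PDL 25 in WI-38 and PDL 15 in IMR-90, and late passage was PDL 53 to 55 and PDL 52. Strain, set and PDL therefore cannot be told apart.

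The repeat of the doxorubicin treatment differed from the first experiment in 4 members, 1 higher and 3 lower, against 4.42% of all genes. LDHA was higher (1.11 ± 0.22, adjusted p = 0.00261), and ALDOC (-2.05 ± 0.30, adjusted p = 0.000144), NDRG1 (-1.16 ± 0.25, adjusted p = 0.00665) and PFKFB4 (-1.27 ± 0.33, adjusted p = 0.0264) were lower. For SLC2A1 the difference was 0.03 ± 0.35 (adjusted p = 1.0), for P4HA1 -0.16 ± 0.27 (adjusted p = 0.866) and for PDK4 -0.96 ± 1.06 (adjusted p = 0.739). The controls of the experiments had unlike proliferation sums, 900.0 to 911 CPM in the first and 116 to 158 CPM in the repeat, on scales of their own, and their part in the result was not tested. Leaving out doxorubicin repeat 2 left 2 members higher and 1 lower, with NDRG1 at -0.93 and PFKFB4 at -1.17 no longer called. PFKFB4 kept its call only without doxorubicin repeat 1 or without repeat control 2, and stood at -1.35 to -0.89 in the other fits.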

How the data were processed

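RNA of cultured cells was sequenced in 37 libraries. The authors deposited a table of whole-number read counts per Ensembl gene for each library, with no normalization. Per the labels' protocols, ribosomal RNA was removed and libraries were made with Ovation V2 and a TruSeq kit. Per the submitters' processing notes, bcl2fastq, cutadapt, STAR 2.4 and featureCounts were used with build hg19. Annotation release and strand setting: not given in the sources used here. Without strand, reads of a gene and of one on the opposite strand cannot be told apart, and 14 members overlap such an exon.

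Of 57773 identifiers, 52338 received a symbol. Counts were fitted within each of 5 library sets with edgeR 4.0.16 in R 4.3.3 (TMM scaling, filterByExpr by group, quasi-likelihood F test, two-sided), with Benjamini-Hochberg adjustment over all genes tested and a threshold of 0.05. SE is the size of the log2 fold change over the square root of F. The procedure was tested on counts simulated with 1 fixed spread for every set. That spread was below the one fitted to either WI-38 set (coefficient of variation 16.3% and 38.1%), so the test does not cover those sets. Alternatives used DESeq2 1.42.0, other scalings and filters, and each library left out in turn. All 35 members enter each comparison's counts, and any of them could be named. For differences the rule was to name the 3 called members of smallest adjusted p on each side, and from the other lists at most 2 called genes per direction. The members and lists were chosen with earlier results of these data known. Replicates of a group differed by 8.5 or more chi-square units per degree of freedom, so none was taken for a repeat of another.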

Additional observations from a re-analysis of the deposited data

Results flagged for a closer look

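These members responded differently in the compared cells or experiments, by the test of the difference itself (edgeR, adjusted p below 0.05), and are given as the first log2 fold change minus the second. For HUVEC against HAEC after radiation, NDRG1 (0.96), ADM (0.61) and ENO1 (0.24) were higher and MGARP (-3.88), EPAS1 (-0.54) and PDK4 (-0.96) lower. For the doxorubicin repeat against the first experiment, LDHA (1.11) was higher and ALDOC (-2.05), NDRG1 (-1.16) and PFKFB4 (-1.27) lower. For WI-38 against IMR-90 after radiation, NDRG1 (1.69), PDK4 (9.34) and ADM (0.93) were higher and PKM (-1.22), ENO1 (-1.09) and HK1 (-1.05) lower. For WI-38 against IMR-90 at late passage, PDK4 (9.69), NDRG1 (1.71) and ENO2 (1.11) were higher and ALDOC (-1.34), P4HA1 (-0.88) and SLC16A1 (-1.0) lower. Each of these differences crosses library sets, so set and cell type or experiment cannot be told apart. The controls of WI-38 and IMR-90 also differed in PDL, at 25 and 15. With 1 or another library left out, PFKFB4 and NDRG1 of the repeat lost their calls. So did ENO1 and HK1 of the fibroblast radiation difference, and ENO2, P4HA1 and SLC16A1 of the late-passage one. Scaled by library totals, PFKFB4 (-1.08), P4HA1 (-0.60) and SLC16A1 (-0.72) were not called. With all 37 libraries in 1 fit, PDK4, EPAS1 and ENO1 of HUVEC against HAEC were not. Both IMR-90 responses rest on the same 2 controls.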

How the results depend on the processing

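Over the members, leaving out each library in turn kept direction and side of the threshold in 2634 of 2865 values, lost 199 calls, gained 32 and reversed 0. The share kept was 482 of 489 with DESeq2 size factors, 452 of 487 with only the compared groups, 472 of 489 with no low-count filter, 473 of 489 with DESeq2's Wald test, 425 of 489 with library totals only and 382 of 489 with all 37 libraries in 1 fit. Where a group was left with 1 library, the spread of the other groups in the set was assumed for it. The cause of the changes below was not tested. Scaled by library totals only, PFKP (-0.182), ALDOA (-0.093) and PGK1 (-0.018) in irradiated IMR-90 and GPI (-0.031) and ALDOA (-0.034) in late-passage IMR-90 changed sign. Under that scaling, 7 members were called higher and 17 lower in irradiated IMR-90, 8 higher in late-passage IMR-90, 8 higher with doxorubicin, 15 higher with HRAS, 3 lower in irradiated WI-38 and 1 lower in the late-passage difference. With only the compared groups, doxorubicin had 4 members lower and 12696 genes called, HRAS 15 members higher and the radiation difference of the fibroblasts 8 lower. DESeq2's Wald test called 5 higher, 2 lower and 3609 genes in the doxorubicin repeat, 3 lower in irradiated WI-38 and 2930 genes in the doxorubicin difference. DESeq2 size factors gave 3 lower in irradiated WI-38, and no low-count filter gave 2 lower there and 3135 genes in the repeat.

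With all 37 libraries in 1 fit, members called higher and lower and all genes called were 3, 5 and 3942 in HAEC, 3, 4 and 3269 in HUVEC, 8, 4 and 9125 in irradiated IMR-90, 10, 7 and 9314 in late-passage IMR-90, 7, 5 and 6464 in the doxorubicin repeat, 11, 3 and 10824 in irradiated WI-38, 15, 6 and 9148 in late-passage WI-38, 2, 1 and 733 for HUVEC against HAEC and 3, 5 and 4149 for the doxorubicin difference. The radiation difference of the fibroblasts had 10 lower, and their late-passage difference 6848 genes.

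With the replicate block, 464 of 489 member values kept direction and side, and 4 members were lower with doxorubicin and 3 in irradiated WI-38. Deviations of same-numbered libraries correlated at 0.792 for HRAS and 0.586 for irradiated WI-38 but -0.262 for late-passage WI-38 and -0.111 for doxorubicin, and at -0.366 to -0.104 for HUVEC, and the labels give only a shared number, so the numbers were not taken to pair the samples. With the numbers crossed in the replicate block, chosen after seeing the data, doxorubicin had 4 members lower.

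Leaving out 1 library gave these lowest and highest counts. Doxorubicin had 8 to 8 members higher and 4479 to 4740 genes called. The repeat had 0 to 5 higher, 1 to 2 lower and 612 to 2498 genes. Irradiated WI-38 had 1 to 5 higher, 0 to 3 lower and 2568 to 6454 genes. Late-passage WI-38 had 2 to 7 higher, 1 to 3 lower and 1876 to 4209 genes. The doxorubicin difference had 1 to 2 higher, 1 to 4 lower and 988 to 2249 genes. The radiation difference of the fibroblasts had 3 to 7 higher and 1 to 6 lower, their late-passage difference 1 to 4 lower and 2837 to 4899 genes, and the difference of HRAS and doxorubicin 7 to 15 higher and 5 to 10 lower. CA9 and EGLN3, under 1 CPM in every library, and PDK4 in the WI-38 controls rest on few counts, which limits their precision.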
